A study of Homo sapiens with 9 samples.

Results

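The excision and mismatch repair genes described here are 41 human genes whose products take part in the repair of damaged or mispaired bases in DNA. They were chosen by name, with earlier results of these data known. A probe of the array was taken as theirs if its RefSeq accession belongs to a transcript of the gene under its current symbol. By this rule 40 of the 41 genes had a probe, 55 of the 42405 gene probes in all, and these 40 are among the 21832 genes tested. GTF2H2, a subunit of TFIIH, had no probe under its own symbol and was not analysed here. The probes used for the 40 genes were well above background on all 9 arrays, so no repair gene entered the tests through one group alone.

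Gene expression was measured in A2780, an established human ovarian carcinoma cell line, in 3 untreated cultures, 3 cultures given 8 nM DIG-MSK for 24 h and 3 cultures given 80 nM DIG-MSK for 24 h. DIG-MSK is an analogue of mithramycin A, an antibiotic that binds the minor groove at C/G-rich sites. The groups carry no other treatment or engineered allele, and all of them come from a single cell line. RNA of each culture went, with one dye, to an array of its own.

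Nucleotide excision repair (NER) cuts out a short stretch of strand around a bulky lesion: the damage is sensed either throughout the genome or at a stalled RNA polymerase, the helicases of TFIIH open the duplex, and nucleases cut on both sides. Base excision repair (BER) begins with a glycosylase that removes a single altered base, after which an endonuclease, a polymerase and a ligase restore the strand. Mismatch repair removes errors left by replication, through MutS dimers that bind the mispair and MutL dimers that license the cut.

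Because DIG-MSK binds C/G-rich DNA, the promoters of 6 repair genes that changed are printed from the RefSeq table of the human assembly GRCh38.p14. Each covers 300 bases, from 250 before the start of the gene to 50 after it, written 5′ to 3′ on the strand of the gene. Capitals mark the GC box, searched as GGGCGG and as CCGCCC on the other strand, and a GC box can overlap a further copy of itself or another motif. PARP1, which codes for the poly(ADP-ribose) polymerase that binds strand breaks (chr1:226408044-226408343, minus strand), and ERCC6, which codes for the coupling factor CSB (chr10:49539072-49539371, minus strand), are shown because a probe of each fell at 80 nM. ERCC2, the XPD helicase (chr19:45370524-45370823, minus strand), OGG1, the 8-oxoguanine glycosylase (chr3:9749702-9750001, plus strand), and MLH3, a MutL subunit (chr14:75051418-75051717, minus strand), are shown because they rose. NEIL1, a glycosylase for oxidized pyrimidines (chr15:75347585-75347884, plus strand), is shown because it moved in opposite directions at the 2 concentrations.
PARP1: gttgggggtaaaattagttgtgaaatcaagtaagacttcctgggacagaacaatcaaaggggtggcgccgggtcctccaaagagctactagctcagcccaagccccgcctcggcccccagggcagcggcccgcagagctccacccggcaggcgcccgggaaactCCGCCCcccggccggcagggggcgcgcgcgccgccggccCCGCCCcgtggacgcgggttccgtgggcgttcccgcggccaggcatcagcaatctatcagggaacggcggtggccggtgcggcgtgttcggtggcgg
ERCC6: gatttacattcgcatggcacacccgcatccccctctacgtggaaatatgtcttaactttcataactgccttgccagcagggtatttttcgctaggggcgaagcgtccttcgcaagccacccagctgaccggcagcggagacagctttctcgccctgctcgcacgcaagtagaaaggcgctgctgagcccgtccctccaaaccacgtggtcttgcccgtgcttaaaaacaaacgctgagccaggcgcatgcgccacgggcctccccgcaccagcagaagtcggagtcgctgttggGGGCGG
ERCC2: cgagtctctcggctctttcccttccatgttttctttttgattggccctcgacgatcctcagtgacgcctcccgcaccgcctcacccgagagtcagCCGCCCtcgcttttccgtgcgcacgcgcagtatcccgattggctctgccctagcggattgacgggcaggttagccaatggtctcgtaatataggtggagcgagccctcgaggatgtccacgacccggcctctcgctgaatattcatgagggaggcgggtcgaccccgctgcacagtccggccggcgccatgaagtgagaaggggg
OGG1: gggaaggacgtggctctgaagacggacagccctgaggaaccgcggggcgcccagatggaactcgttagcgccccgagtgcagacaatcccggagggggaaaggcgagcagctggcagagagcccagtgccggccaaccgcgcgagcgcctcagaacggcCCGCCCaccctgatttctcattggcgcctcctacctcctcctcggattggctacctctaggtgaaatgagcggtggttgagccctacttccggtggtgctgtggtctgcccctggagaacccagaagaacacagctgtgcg
MLH3: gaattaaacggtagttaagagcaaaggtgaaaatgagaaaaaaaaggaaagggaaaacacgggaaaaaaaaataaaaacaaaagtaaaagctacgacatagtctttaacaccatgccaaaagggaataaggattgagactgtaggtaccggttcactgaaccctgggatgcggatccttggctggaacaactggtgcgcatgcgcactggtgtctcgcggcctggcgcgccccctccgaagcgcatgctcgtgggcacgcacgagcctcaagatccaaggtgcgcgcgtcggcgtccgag
NEIL1: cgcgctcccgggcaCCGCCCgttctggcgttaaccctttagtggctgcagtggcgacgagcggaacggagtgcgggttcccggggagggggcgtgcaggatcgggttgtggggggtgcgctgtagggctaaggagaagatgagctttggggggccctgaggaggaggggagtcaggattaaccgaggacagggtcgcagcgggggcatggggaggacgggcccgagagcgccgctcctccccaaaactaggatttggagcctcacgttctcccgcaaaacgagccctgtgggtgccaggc

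Of the 40 repair genes tested, 37 had a promoter in the table, and 28 of these (75.7%) held a GC box, against 67.3% of the 11119 promoters of genes tested and 44.6% of all 27305 promoters. The box was found in 7 of the 12 promoters of repair genes that rose at 80 nM, in 9 of the 9 of those that fell and in 12 of the 16 of those that did not pass the test. The median GC content was 62.0% for the genes that rose, 70.0% for those that fell and 64.7% for the 11119 promoters of genes tested. Genes that rose or fell are taken here by the probes used, which counts PMS1 among the first and PARP1 among the second. The CCAAT box, searched as CCAAT and ATTGG, was present in 8 of the 12 promoters of the genes that rose and in 2 of the 9 of those that fell, against 36.9% of the promoters of genes tested. The motifs were counted as letters in a fixed window, so they are a description of the promoters and not of binding, and the window of MLH3 holds no copy of the GC box. The promoters printed above hold 2 GC boxes for PARP1 and 1 each for ERCC6, ERCC2, OGG1 and NEIL1.

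Each level below is a processed intensity on the log2 scale after subtraction of the 75th percentile of its array. Such levels compare a probe between arrays and not one gene with another. The change of a gene is the difference between the means of 2 groups on this log2 scale, with its standard error (SE). A gene is said to have risen or fallen if its adjusted p was under 0.05 (limma over all 9 arrays, with Benjamini-Hochberg adjustment over the 21832 genes). Where several probes measure a gene, this call and every count of genes rest on the probe used for it, and no direction is given for PARP1, PMS1, UVSSA, SMUG1 or TDG as a whole, because their probes disagree at 80 nM. The arrays were similar in signal, with a 75th percentile between 831.7 and 1170 and between 24814 and 27151 probes well above background; replicate 2 at 8 nM had the fewest. Correlations between arrays of a group lay between 0.989 and 0.996 across genes. The untreated and 8 nM arrays share slide 1, and the 80 nM arrays lie on slide 2 and were scanned at another time, so a difference between slides and the effect of 80 nM cannot be told apart. KRT8, KRT18, KRT19 and EPCAM, markers of epithelial cells, were well above background on all 9 arrays, whereas WT1, MUC16 and CDH1 were so on 0 arrays and PAX8 on 3. EPCAM rose by 0.90 at 8 nM (adjusted p = 0.029), fell by 0.93 at 80 nM (adjusted p = 0.0065) and by 1.83 between the concentrations (adjusted p = 0.00019), KRT8 rose by 0.30 at 80 nM (adjusted p = 0.011), and KRT18 and KRT19 passed in no contrast. Of 8 markers of other cell types, PTPRC, ACTA2 and COL3A1 were above background in every group and PECAM1 and HBB on 0 arrays. Levels were also summed over each list on the linear scale, in units of the 75th percentile, where the brightest genes weigh most. For other cell types the sum lay between 2.51 and 2.81 in untreated cells, 4.22 and 4.71 at 8 nM and 16 and 16.8 at 80 nM. For the epithelial and ovarian carcinoma list it lay between 3.20 and 3.31, 3.45 and 3.68, and 3.31 and 3.64. ACTA2 and COL3A1 rose, and PTPRC had a change of -0.73 at 8 nM that did not pass (adjusted p = 0.096). The part of both marker lists in the results below was not tested.

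At 8 nM DIG-MSK few repair genes moved. NEIL1, the centrin gene CETN2 and ERCC4, which codes for a subunit of the 5′ incision nuclease, rose, while XAB2, which codes for a partner of XPA in coupled repair, and the probe used for PARP1 fell. The other probe of PARP1 had a change of 0.01 (adjusted p = 0.93). These 5 genes are 12.5% of the 40 tested, against 13.6% of all genes tested, and by direction the background was 7.91% risen and 5.72% fallen. At an unadjusted p under 0.05, 15 of the 40 repair genes differed, beside 6717 of the 21832 genes tested. The same share of all genes stands beside each count of this kind given for a list at 8 nM below. By the 1.5-fold rule with an unadjusted p under 0.05, 1 repair gene was up (NEIL1) and 0 were down, where 4.25% and 2.84% of all genes were called (7.09% in all). The median change of the repair genes was -0.04, and that of all genes -0.06. The labels give the untreated and 8 nM arrays the same replicate numbers but do not state a pairing. The fit behind these calls leaves the numbers out. With the number as a block 2 genes rose (CETN2 and NEIL1) and 1 fell (PARP1), and the calls of ERCC4 and XAB2 were lost. With only the untreated and 8 nM arrays in the blocked fit, 1 rose (NEIL1) and 0 fell, 4 of the genes being lower at an unadjusted p under 0.05. Without replicate 2 at 8 nM the genes that fell were 6, namely PARP1, PARP2, UNG, NTHL1, MSH6 and MGMT. In limma they were 1 without 80 nM replicate 2 and 0 without any untreated array, 8 nM replicate 1 or 3 or 80 nM replicate 3, with 2 to 5 lower at an unadjusted p under 0.05.

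At 80 nM DIG-MSK 12 repair genes rose and 9 fell against untreated cells. The genes that rose include both helicases of TFIIH (ERCC2 and ERCC3), both subunits of the 5′ incision nuclease (ERCC1 and ERCC4), the MutL subunit MLH3, and OGG1, MPG and APEX1 of base excision repair. They also count PMS1, by a probe that rose by 0.37, although a probe of another PMS1 transcript fell by 0.80 (adjusted p = 0.01). The genes that fell include the coupling genes ERCC6 and XAB2, the MutS subunit MSH3, and NTHL1, NEIL1 and LIG3 of base excision repair. They also count PARP1, by a probe that fell by 1.5, although its other probe rose by 0.29 (adjusted p = 0.015). The called genes are 52.5% of the 40, against 59% of all genes tested, with 33.3% of all genes risen and 25.7% fallen. By the 1.5-fold rule 5 were up and 3 down, where 18.8% and 16.3% of all genes were called (35.1% in all). The median change was -0.02 for the repair genes and 0.08 for all genes, and the median size of the change was 0.262 and 0.419. By role, the median change at 80 nM was -0.05 for the 9 genes of damage recognition and coupling, 0.32 for the 6 of TFIIH, 0.52 for the 3 of incision, 0.02 for the 5 of mismatch repair, -0.14 for the 10 glycosylases and -0.20 for the 6 that act after them. On the spike-in scale described below, these medians were -0.33, 0.04, 0.24, -0.26, -0.42 and -0.48. In RNA of whole cultures, fewer cells of a type and less RNA per cell cannot be told apart.

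**Figure D1:**
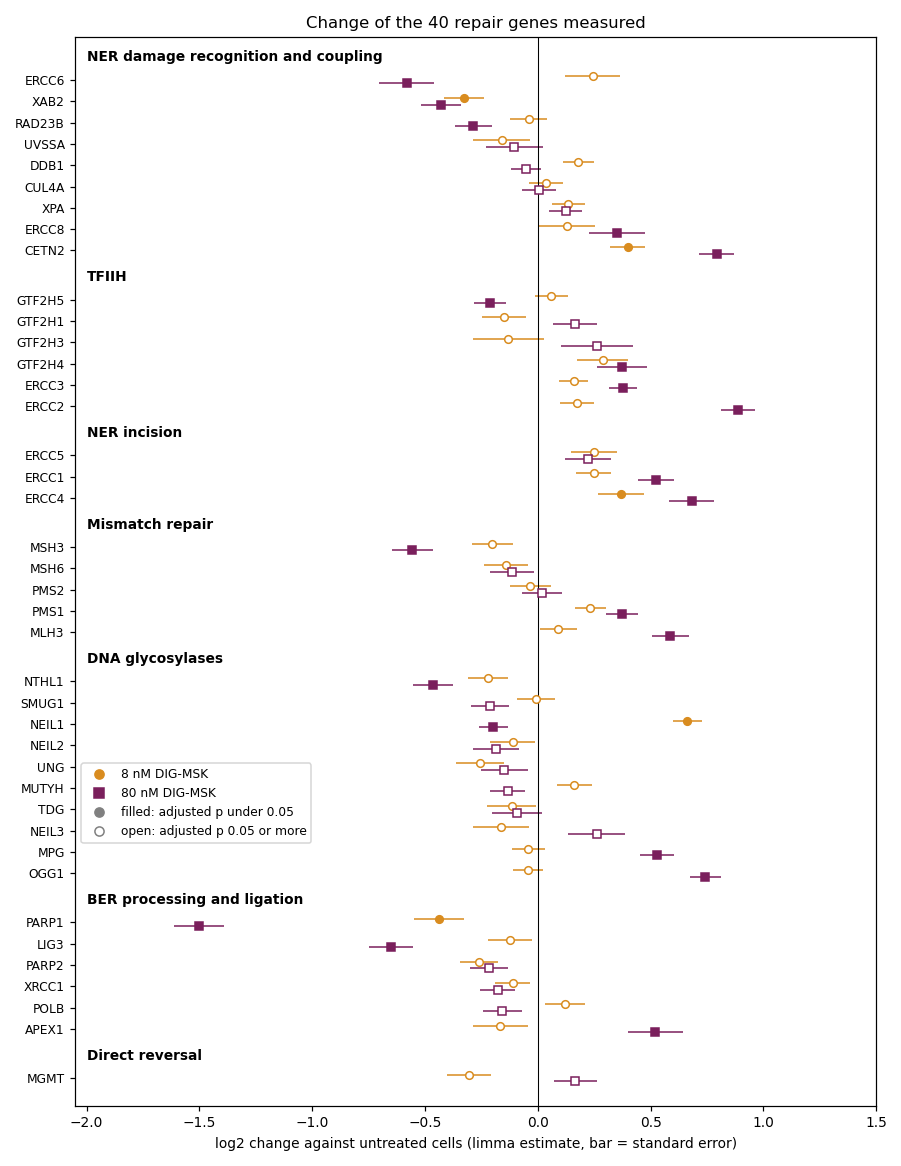
Log2 change against untreated cells of the 40 repair genes tested, grouped by role, at 8 nM (circles) and 80 nM (squares), with bars for the standard error and filled symbols for an adjusted p under 0.05. The points at 8 nM lie between -0.44 and 0.66 and those at 80 nM between -1.5 and 0.89.

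The number of calls at 80 nM depended on the scale. With 10 spike-in control probes in place of the 75th percentile, the median change of all genes moved from 0.08 to -0.20, and 1 repair gene rose (ERCC2) and 6 fell (ERCC6, XAB2, MSH3, NTHL1, PARP1 and LIG3), where 8.32% of all genes rose and 23.2% fell. These 7 were among the 12 and 9 called on the 75th percentile scale. No sign changed between the 2 scales among the 21 genes called at 80 nM against untreated. The 5 genes called at 8 nM kept their sign, but none passed on the spike-in scale, where 0 rose and 0 fell in limma, 2 were higher and 0 lower at an unadjusted p under 0.05.

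**Figure D2:**
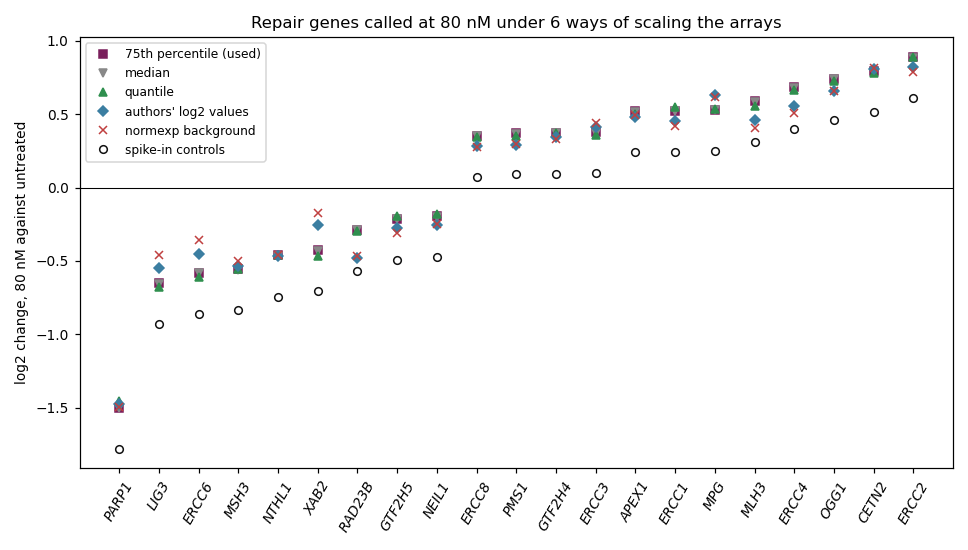
Log2 change at 80 nM against untreated of the 21 repair genes called there, in order of the change, under 6 ways of scaling or correcting the arrays. The open circles of the spike-in scale lie below the other symbols for all 21 genes, and all symbols of a gene lie on the same side of 0.

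Among the 9 genes of damage recognition and transcription coupling, 2 rose and 3 fell at 80 nM, and 1 rose and 1 fell at 8 nM. CETN2 (NM_004344) codes for centrin 2, which stabilizes the sensor of damage in the whole genome. Its level was 0.35, 0.27 and 0.12 in untreated cells, 0.67, 0.67 and 0.60 at 8 nM and 0.98, 1.05 and 1.08 at 80 nM. The 3 groups did not overlap and stood in the order of the concentrations. CETN2 rose by 0.40 at 8 nM (SE 0.08, 1.32-fold, adjusted p = 0.013), by 0.79 at 80 nM (SE 0.08, 1.73-fold, adjusted p = 5.7e-05) and by 0.39 between the concentrations (adjusted p = 0.0027). On the spike-in scale the change was 0.51 at 80 nM (adjusted p = 0.093) and 0.04 between the concentrations.

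ERCC6 (NM_000124) codes for CSB, the ATPase that binds RNA polymerase stalled at damage. Its level was -2.62, -2.66 and -2.69 in untreated cells, -2.52, -2.21 and -2.51 at 8 nM and -3.00, -3.36 and -3.35 at 80 nM. Every 80 nM array lay below the other 6, and the 8 nM arrays lay above the untreated ones. The change was 0.24 at 8 nM, which did not pass the test (adjusted p = 0.21), and ERCC6 fell by 0.58 at 80 nM (SE 0.12, 1.5-fold, adjusted p = 0.0038) and by 0.82 between the concentrations (adjusted p = 0.00063). It passed under every alternative run in both comparisons with 80 nM. ERCC8, which codes for CSA, the other factor of coupled repair, rose by 0.35 at 80 nM (adjusted p = 0.038), and this call was lost without any of 5 of the 9 arrays (untreated replicate 1 or 3, or any 80 nM array).

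XAB2, which codes for a protein that binds XPA and the coupling factors, fell by 0.33 at 8 nM (adjusted p = 0.045) and by 0.43 at 80 nM (adjusted p = 0.0035), and the call at 8 nM was lost without any of 8 of the 9 arrays. RAD23B, which codes for a partner of the damage sensor, fell by 0.29 at 80 nM (adjusted p = 0.017), a call lost without untreated replicate 2 or 80 nM replicate 3. At 8 nM its other probe had a change of -0.64, with a level of -1.07 on replicate 2 against 0.18 and 0.07 on replicates 1 and 3. The changes at 80 nM were 0.12 for XPA, which verifies damage, -0.05 for DDB1 and 0.01 for CUL4A, both of the ubiquitin ligase that marks damage in chromatin, and -0.10 for UVSSA, the coupling factor that holds CSB, and none of them passed. The other probe of UVSSA, with the same accession, fell by 0.79 at 80 nM (adjusted p = 0.0011), so no direction is given for UVSSA.

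Of the 6 TFIIH genes tested, 3 rose and 1 fell at 80 nM, and at 8 nM 0 were called by limma and 2 differed at an unadjusted p under 0.05. ERCC2 (NM_000400) codes for XPD, the helicase that opens DNA around the lesion. Its level was -1.34, -1.38 and -1.29 in untreated cells, -1.28, -1.04 and -1.17 at 8 nM and -0.46, -0.47 and -0.42 at 80 nM. Every 80 nM array lay above the other 6. The change at 8 nM was 0.17 (adjusted p = 0.17), and ERCC2 rose by 0.89 at 80 nM (SE 0.08, 1.85-fold, adjusted p = 2.8e-05), the largest rise among the probes used for repair genes, and by 0.71 between the concentrations (adjusted p = 0.00011). The other probe of ERCC2 rose by 0.42 at 80 nM (adjusted p = 0.0033). ERCC3, which codes for the XPB translocase of TFIIH, rose by 0.38 at 80 nM (adjusted p = 0.0011) and GTF2H4, which codes for the subunit that anchors XPB, by 0.37 (adjusted p = 0.02), although the call of GTF2H4 was lost without any 80 nM array. GTF2H5, the smallest subunit, fell by 0.21 (adjusted p = 0.034), a call lost without any of 5 arrays (any untreated array, or 80 nM replicate 1 or 3). GTF2H1 and GTF2H3, which code for core subunits, had changes of 0.16 and 0.26 that did not pass.

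All 3 genes of the incision step had positive changes at both concentrations on the 75th percentile scale, and 2 of them rose at 80 nM. None of them passed at 80 nM on the spike-in scale, where the changes were 0.24 for ERCC1 (adjusted p = 0.39), 0.40 for ERCC4 (adjusted p = 0.16) and -0.06 for ERCC5 (adjusted p = 0.86). ERCC4 (NM_005236) codes for XPF, the catalytic subunit of the nuclease that cuts on the 5′ side. Its level was -2.55, -2.74 and -2.81 in untreated cells, -2.35, -2.22 and -2.42 at 8 nM and -2.02, -2.14 and -1.89 at 80 nM. The 3 groups did not overlap and stood in the order of the concentrations. ERCC4 rose by 0.37 at 8 nM (SE 0.10, adjusted p = 0.047), by 0.68 at 80 nM (SE 0.10, 1.60-fold, adjusted p = 0.00058) and by 0.31 between the concentrations (adjusted p = 0.027), a difference whose sign turned on the spike-in scale (-0.04). The call at 8 nM was lost without any of 8 of the 9 arrays. Its other probe, with the same accession, had levels of -4.16, -3.86 and -3.87 in untreated cells, -3.60, -4.75 and -3.50 at 8 nM and -2.28, -1.80 and -1.75 at 80 nM. That probe rose by 2.02 at 80 nM (SE 0.32, adjusted p = 0.00078), so both probes rose but by unequal amounts. ERCC1, which codes for the DNA-binding partner of XPF, rose by 0.52 at 80 nM (adjusted p = 0.00062), and its other probe by 0.28 (adjusted p = 0.0055). ERCC5, which codes for XPG, the nuclease of the 3′ side, had changes of 0.25 and 0.22, which did not pass (adjusted p = 0.14 and 0.093).

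**Figure D3:**
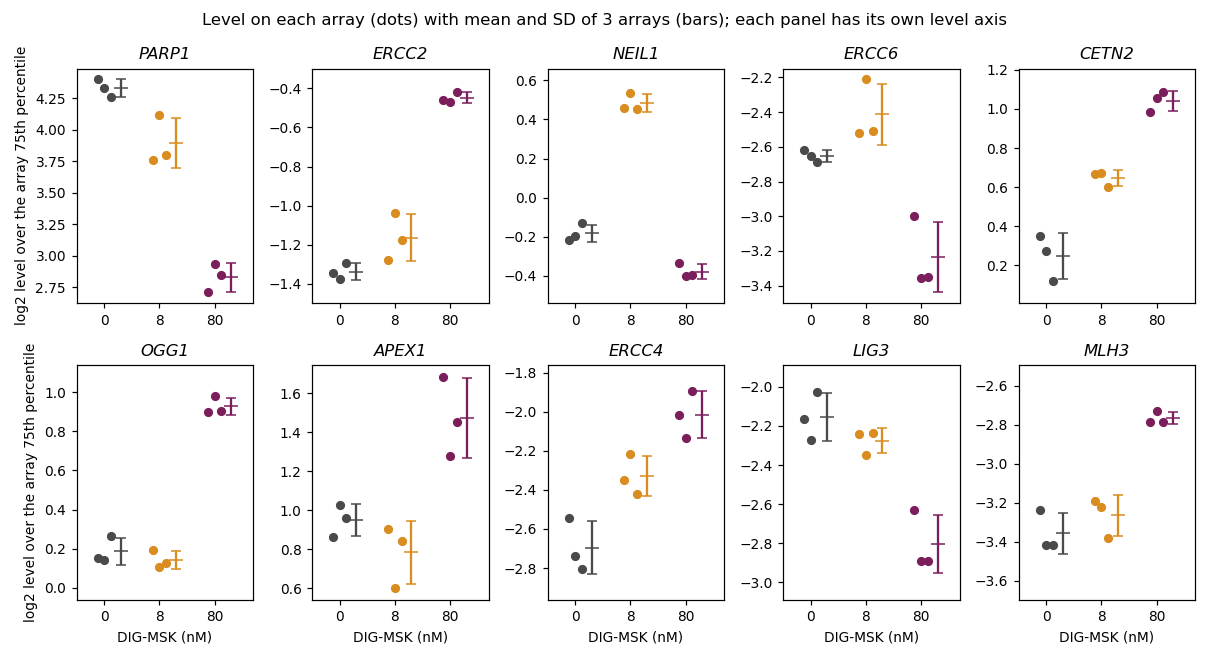
Level of 10 repair genes on each of the 9 arrays (dots) by concentration of DIG-MSK, with the mean and SD of the 3 arrays of a group beside them; each panel has its own axis. The 80 nM arrays lie apart from the untreated arrays in all 10 panels, below them for the probe used for PARP1 and for NEIL1, ERCC6 and LIG3 and above them for the other 6.

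Among the 5 mismatch repair genes tested, 2 rose and 1 fell at 80 nM by the probes used, and at 8 nM 0 were called by limma and 1 differed at an unadjusted p under 0.05. MLH3 (NM_001040108) codes for a MutL subunit with a nuclease site. Its level was -3.24, -3.42 and -3.42 in untreated cells, -3.19, -3.22 and -3.38 at 8 nM and -2.79, -2.73 and -2.79 at 80 nM. The untreated and 8 nM arrays overlapped, and every 80 nM array lay above both. The change at 8 nM was 0.09 (adjusted p = 0.48), and MLH3 rose by 0.59 at 80 nM (SE 0.08, 1.5-fold, adjusted p = 0.00042) and by 0.50 between the concentrations (adjusted p = 0.0011). MSH3, which codes for the MutS subunit that binds larger loops, fell by 0.56 at 80 nM (SE 0.09, 1.47-fold, adjusted p = 0.00097), while its change at 8 nM was -0.20 (adjusted p = 0.17). It passed under every alternative run at 80 nM.

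MSH6, which codes for the MutS subunit that binds single mispairs, had changes of -0.14 and -0.11 that did not pass. PMS1, which codes for a MutL subunit, rose by 0.37 at 80 nM (adjusted p = 0.0021) with the probe of NM_000534, while a probe of another transcript (NM_001128144) fell by 0.80 (adjusted p = 0.01), and the mean of both probes changed by -0.21, so no direction is given for PMS1. PMS2, which codes for the MutL subunit with the main nuclease site, has copies of similar sequence elsewhere in the genome, so its signal is uncertain. Its probe with the highest level had a change of 0.02 at 80 nM, and 2 of its other 3 probes fell, by 0.24 (adjusted p = 0.011) and 0.42 (adjusted p = 0.02).

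The 10 DNA glycosylase genes split at 80 nM into 2 that rose, 2 that fell and 6 that did not pass, and 1 rose at 8 nM. OGG1 codes for the enzyme that removes 8-oxoguanine. The level of its probe (NM_016828) was 0.15, 0.14 and 0.27 in untreated cells, 0.19, 0.11 and 0.13 at 8 nM and 0.90, 0.98 and 0.91 at 80 nM. The untreated and 8 nM arrays overlapped and the 80 nM arrays lay above both. The change at 8 nM was -0.04 (adjusted p = 0.7), and OGG1 rose by 0.74 at 80 nM (SE 0.07, 1.67-fold, adjusted p = 3.8e-05) and by 0.79 between the concentrations (adjusted p = 3e-05). A probe of another OGG1 transcript (NM_002542) rose by 0.72 at 80 nM (adjusted p = 9.1e-05). On the spike-in scale OGG1 changed by 0.46 at 80 nM (adjusted p = 0.14).

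NEIL1 (NM_024608) codes for a glycosylase of oxidized pyrimidines. Its level was -0.22, -0.20 and -0.13 in untreated cells, 0.46, 0.53 and 0.45 at 8 nM and -0.34, -0.40 and -0.40 at 80 nM. All 8 nM arrays lay above the untreated ones and all 80 nM arrays below them. NEIL1 rose by 0.66 at 8 nM (SE 0.06, 1.58-fold, adjusted p = 0.00053) and fell by 0.20 at 80 nM (SE 0.06, 1.15-fold, adjusted p = 0.026), and the direct difference between the concentrations was -0.86 (SE 0.06, 1.82-fold, adjusted p = 1.3e-05). The rise at 8 nM did not pass on the spike-in scale (0.74, adjusted p = 0.15 in limma). The fall against untreated cells was lost under median scaling, spike-in scaling, no filter and the block. It was also lost without untreated replicate 2 or 3 or 80 nM replicate 2 or 3. The difference between the concentrations passed under all 10 alternatives and with each array left out.

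MPG, which codes for the glycosylase of alkylated purines, rose by 0.53 at 80 nM (SE 0.07, 1.44-fold, adjusted p = 0.00043), and NTHL1, which codes for a further glycosylase of oxidized pyrimidines, fell by 0.46 (SE 0.09, 1.38-fold, adjusted p = 0.0023). Neither passed at 8 nM, where the changes were -0.04 and -0.22. UNG and SMUG1, which code for enzymes that remove uracil, had changes of -0.15 and -0.21 at 80 nM that did not pass, and the other probe of SMUG1 rose by 0.46 (adjusted p = 0.0024). TDG, which codes for an enzyme that removes thymine paired with guanine, had a change of -0.09, and its other probe rose by 0.56 (adjusted p = 0.043). MUTYH, which codes for the enzyme that removes adenine paired with 8-oxoguanine, NEIL2 and NEIL3 had changes of -0.13, -0.18 and 0.26 at 80 nM, none of which passed.

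Of the 6 genes that act after the glycosylase, 1 rose and 2 fell at 80 nM and 1 fell at 8 nM, by the probes used. PARP1 (NM_001618) codes for the enzyme that binds strand breaks and builds poly(ADP-ribose). The level of the probe used was 4.40, 4.33 and 4.26 in untreated cells, 3.76, 4.12 and 3.80 at 8 nM and 2.71, 2.93 and 2.84 at 80 nM. The 3 groups did not overlap and fell in the order of the concentrations. On this probe PARP1 fell by 0.44 at 8 nM (SE 0.11, 1.35-fold, adjusted p = 0.035), by 1.5 at 80 nM (SE 0.11, 2.83-fold, adjusted p = 1.2e-05) and by 1.06 between the concentrations (adjusted p = 9.1e-05), and the fall at 80 nM was the largest change of any repair gene in the probes used. The call at 8 nM was lost without any of 6 arrays (any untreated array, 8 nM replicate 1 or 3, or 80 nM replicate 3).

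The other probe of PARP1 carries the same accession and went the other way at 80 nM. Its level was 1.95, 2.10 and 1.89 in untreated cells, 2.04, 1.96 and 1.99 at 8 nM and 2.33, 2.17 and 2.33 at 80 nM. The untreated and 8 nM arrays overlapped, and the 80 nM arrays lay above both. This probe had a change of 0.01 at 8 nM (adjusted p = 0.93) and rose by 0.29 at 80 nM (SE 0.08, adjusted p = 0.015). The mean of both probes fell by 0.60 at 80 nM, and no direction of PARP1 as a whole is taken from these arrays.

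LIG3 (NM_002311) codes for the ligase that closes the nick together with XRCC1. Its level was -2.16, -2.27 and -2.03 in untreated cells, -2.24, -2.35 and -2.24 at 8 nM and -2.63, -2.89 and -2.89 at 80 nM. The untreated and 8 nM arrays overlapped and the 80 nM arrays lay below both. The change at 8 nM was -0.12 (adjusted p = 0.43), and LIG3 fell by 0.65 at 80 nM (SE 0.10, 1.57-fold, adjusted p = 0.00068) and by 0.53 between the concentrations (adjusted p = 0.0022). It passed under every alternative run in both comparisons.

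APEX1 (NM_080649) codes for the endonuclease that cuts at the site without a base. Its level was 0.86, 1.03 and 0.96 in untreated cells, 0.91, 0.60 and 0.84 at 8 nM and 1.68, 1.28 and 1.45 at 80 nM. The untreated and 8 nM arrays overlapped and the 80 nM arrays lay above both. The change at 8 nM was -0.17 (adjusted p = 0.39), and APEX1 rose by 0.52 at 80 nM (SE 0.12, 1.44-fold, adjusted p = 0.0066) and by 0.69 between the concentrations (adjusted p = 0.0017). At 80 nM the scaffold gene XRCC1, the polymerase gene POLB and PARP2, which codes for a second break sensor, had changes of -0.18, -0.16 and -0.21 that did not pass. MGMT, which codes for the protein that takes methyl groups off guanine directly, had changes of -0.30 (adjusted p = 0.076) and 0.17 (adjusted p = 0.17) and was higher at 80 nM than at 8 nM by 0.47 (adjusted p = 0.0036).

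Several probes passed the filter for 13 of the 40 genes, and for 7 of these the probes differed by more than 0.5 in at least 1 comparison. At 80 nM against untreated this held for 6 genes, namely PARP1, ERCC4, PMS1, UVSSA, SMUG1 and TDG. Apart from PMS1, their probes carry the same accession. Both probes of ERCC1, of ERCC2 and of OGG1 rose at 80 nM. Where in a transcript a probe lies was not determined here, so the source of these differences was not tested.

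**Figure D4:**
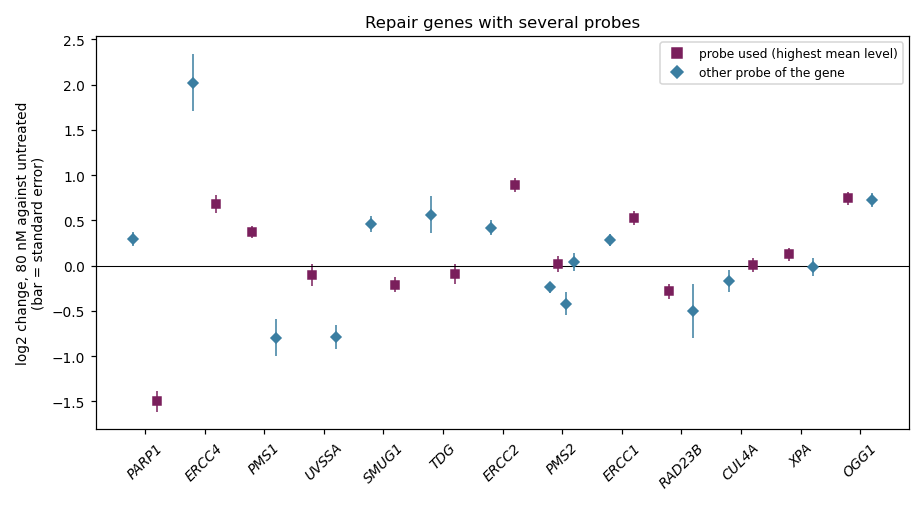
Log2 change at 80 nM against untreated, with its standard error, for each probe of the 13 repair genes with several probes; squares are the probe used and diamonds the others. The squares and diamonds of PARP1, ERCC4, PMS1, UVSSA, SMUG1 and TDG lie more than 0.5 apart.

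Between the concentrations, 12 repair genes were higher and 11 lower at 80 nM than at 8 nM, or 57.5% of the 40, where 57.6% of all genes were called, 34.6% higher and 22.9% lower. The contrast shares its arrays with those against untreated cells, so it adds the direct test of a difference and no independent replicate. The genes that were higher are CETN2, ERCC2, ERCC3, GTF2H1, ERCC1, ERCC4, MLH3, OGG1, NEIL3, MPG, APEX1 and MGMT. Those that were lower are DDB1, RAD23B, ERCC6, GTF2H5, MSH3, MUTYH, NTHL1, NEIL1, LIG3, POLB and, by the probe used, PARP1, whose other probe was higher by 0.28 (adjusted p = 0.018). The sign of RAD23B turned under normexp (0.12) and with the authors' values (0.10), so no direction is given for it either. Its call was lost without any of 6 of the 9 arrays (untreated replicate 3, 8 nM replicate 2 or 3, or any 80 nM array) and that of NTHL1 without any of 8, every array but 8 nM replicate 3. The calls of DDB1, POLB, ERCC3, GTF2H1, ERCC1, ERCC4 and NEIL3 were each lost without at least 1 array, among the 8 nM and 80 nM ones only. On the spike-in scale 0 were higher, also at an unadjusted p under 0.05 in limma, and 8 were lower, where 5.98% and 23.5% of all genes were called. In this contrast the signs of ERCC3, GTF2H1, ERCC1 and ERCC4 turned on that scale, with changes of -0.14, -0.04, -0.08 and -0.04, so no direction between the concentrations is given for them. By the probes used, the 5 genes called at 8 nM were called at 80 nM too. Of them 4 had the same direction and NEIL1 the opposite one. At 80 nM 59% of all genes were called, and both contrasts share the untreated arrays. How many of all genes called at 8 nM were also called at 80 nM was not counted. In all, 27 of the 40 genes were called in at least 1 of the 3 contrasts. The matching share of all genes was not counted, but it is no lower than the 59% called at 80 nM against untreated. The 13 repair genes called in no contrast had changes between -0.26 and 0.39.

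Further genes of the same pathways, listed by their role, were read beside the repair genes. Of 11 other NER genes, 2 rose at 8 nM and 0 fell in limma, with 4 of the 11 at an unadjusted p under 0.05. Those called are 18.2% of the list, beside 13.6% of all genes tested. These 2 are XPC, the sensor of damage in the whole genome, and DDB2, which finds damage in chromatin, and each rose by 0.88. DDB2 rose at 8 nM on the spike-in scale too (0.95, adjusted p = 0.033), while XPC did not pass there (0.96, adjusted p = 0.065). At 80 nM 72.7% were called, beside 59% of all genes. Of the list 3 rose, namely XPC, DDB2 and CUL4B, and 5 fell. The 5 are MNAT1, CCNH and CDK7, which together form the kinase module of TFIIH, RBX1, a ligase subunit, and MMS19, an assembly factor for iron-sulphur proteins. MNAT1 fell by 1.11 at 80 nM (adjusted p = 9.8e-05), CCNH by 0.72 (adjusted p = 0.0017) and CDK7 by 0.44 (adjusted p = 0.0017). On the spike-in scale the changes of MNAT1 and CDK7 were -1.39 and -0.72, all 5 fell, and none of the 3 others rose. The median change of the 11 genes was -0.08 at 8 nM and 0.09 at 80 nM, beside -0.06 and 0.08 for all genes.

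Of 20 genes of repair synthesis and ligation, 2 rose and 6 fell at 8 nM (median change -0.22), and 6 rose and 4 fell at 80 nM (median change -0.11). Those called are 40% of the 20 at 8 nM and 50% at 80 nM, beside 13.6% and 59% of all genes. Of all genes 7.91% rose and 5.72% fell at 8 nM, and 33.3% rose and 25.7% fell at 80 nM. POLD4, POLD2 and PCNA, which code for subunits of polymerase delta and its clamp, rose by 0.83, 0.78 and 0.80 at 80 nM. POLD1, the catalytic subunit of polymerase delta, fell by 0.61 (adjusted p = 0.0021), and POLD3 had a change of -0.23 that did not pass (adjusted p = 0.13). POLD1 also fell on the spike-in scale, by 0.89 (adjusted p = 0.0037), where POLD2, POLD4 and PCNA did not pass. RPA3, POLE3 and POLE4 fell there too, by 0.75, 0.72 and 0.93 (adjusted p = 0.009, 0.028 and 0.0038). Of 9 other genes of base excision and direct reversal, 1 rose and 1 fell at 8 nM (median -0.10) and 4 rose and 4 fell at 80 nM (median 0.12). Those called are 22.2% of the 9 at 8 nM and 88.9% at 80 nM. ALKBH3, which codes for an enzyme that reverses alkylation, fell by 0.31 at 8 nM and rose by 0.87 at 80 nM, while TDP1 and PARG, which clear protein adducts and poly(ADP-ribose), fell by 0.87 and 0.73 at 80 nM. Of 12 genes of S phase, 0 rose in limma and 7 fell at 8 nM, with 11 at an unadjusted p under 0.05 (median -0.37). At 80 nM 3 rose and 2 fell (median 0.01), where RRM2 rose by 1.03, MCM5 fell by 0.93 and MKI67 fell by 0.81. Those called are 58.3% of the 12 at 8 nM and 41.7% at 80 nM. On the spike-in scale 0 of the genes in these 3 lists were called at 8 nM. At 80 nM 0 rose, while 4, 3 and 2 fell, where 8.32% of all genes rose and 23.2% fell. Among those that fell were TDP1, PARG, MCM5 and MKI67. The part of these genes in the changes of the repair genes was not tested.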

How the data were processed

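RNA of 9 independent cultures of A2780 cells was hybridized to single-colour Agilent arrays. The authors extracted the spots with Feature Extraction 10.7.3.1, and the processed intensity they deposited had its background removed, with no scaling across arrays. The authors also deposited log2 values per probe, used as an alternative only.

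Control and outlier spots were left out, spots of a probe were averaged as log2, and the 75th percentile of gene spots was subtracted. A probe was kept if well above background on all 3 arrays of a group, which left 26457 probes and 21832 genes, each read from its kept probe with the highest mean level. Of 42405 gene probes, 27245 had a RefSeq accession and 25715 were named through RefSeq. Groups were compared with limma 3.58.1 in R 4.3.3 (lmFit, eBayes) on all 9 arrays, with Benjamini-Hochberg adjustment, and the procedure was tested on simulated data. The 1.5-fold rule (at least 1.5-fold or at most 0.67-fold, at an unadjusted p under 0.05) is that of the methods.

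The labels number the replicates 1 to 3 and do not state a pairing. Same-numbered untreated and 8 nM arrays deviated together (r = 0.114, 0.101 and 0.163 across genes). Values of this size were also found between differently numbered 8 nM and 80 nM arrays (r = 0.118 and 0.125). These values therefore do not establish a pairing. The main fit, from which the calls, SE and adjusted p come, leaves the replicate numbers out. The replicate number entered as a block in alternatives only. Members and gene lists were chosen with earlier results of these data known. Values on each array are given for genes with an adjusted p under 0.05 and a change of at least 1.5-fold in a contrast, and at most 3 genes of each further list by the size of the change. Other members are given by a change. Beyond this rule, CUL4B, RBX1, CCNH, CDK7, MMS19, POLD1, POLD3, RPA3, POLE3 and POLE4 were named after their values were seen. Alternatives were normexp (offset 50, on the median spot signal), quantile, median and spike-in scaling, the authors' values, other filters and the mean of probes. Further ones were fewer groups, a replicate block, and a block with only the untreated and 8 nM arrays (chosen after seeing the data). Each array was also left out in turn. The number of arrays limits the precision.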

Additional observations from a re-analysis of the deposited data

Results flagged for a closer look

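The change of NEIL1 against untreated cells differed between the 8 nM and the 80 nM arrays, which lie on different slides, so concentration and slide cannot be told apart. NEIL1 rose by 0.66 at 8 nM, on the slide of the untreated arrays. This rise did not pass on the spike-in scale (0.74, adjusted p = 0.15 in limma). At 80 nM NEIL1 fell by 0.20. The fall was lost under median scaling, spike-in scaling, no filter and the replicate block. It was also lost without untreated replicate 2 or 3 or 80 nM replicate 2 or 3. Between the concentrations, the direct test of 80 nM against 8 nM gave a difference of -0.86 on the log2 scale (SE 0.06, adjusted p = 1.3e-05, limma with Benjamini-Hochberg adjustment), with all 3 arrays at 80 nM below all 3 at 8 nM. On the scale of the spike-in probes the difference was -1.22 (adjusted p = 0.00099), and over the 10 alternatives it lay between -1.22 and -0.85.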

How the results depend on the processing

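Slide and 80 nM cannot be told apart, and 3 arrays a group limit the calls. Against 3 repair genes that rose at 8 nM, the count was 6 under quantile normalization, 5 with the authors' values and 0 under spike-in scaling. It was 1 with only the groups compared in the fit, with or without the replicate block. Of all genes 7.91% rose in the main fit. In these alternatives the share was 9.82%, 9.78%, 1.59%, 4.74% and, with the block, 2.85%. Against 2 that fell, the count was 1 under normexp, quantile or median scaling, the authors' values, the mean of probes or the replicate block. It was 0 under spike-in scaling, without the filter, with only the groups compared, or in the block with only those groups. Of all genes 5.72% fell in the main fit. That share was 3.9% to 7.36% where the count was 1 and 0.119% to 2.23% where it was 0. With each array left out in turn, 2 to 3 rose and 0 to 6 fell (6 without replicate 2 at 8 nM, 0 without any untreated array, replicate 1 or 3 at 8 nM or replicate 3 at 80 nM, and 1 without replicate 2 at 80 nM), 1 was up by the 1.5-fold rule and 0 down; under normexp 1 was down. At 80 nM, 12 rose against 1 under spike-in scaling, where the share of all genes went from 33.3% to 8.32%. By the 1.5-fold rule 5 were up against 1 under spike-in scaling (18.8% and 10.2% of all genes). By that rule 3 were down, against 1 under normexp, 1 with the authors' values and 6 under spike-in scaling. Of all genes 16.3% were down in the main fit and 10.8%, 13.1% and 26.2% in these alternatives. Leaving out an array gave 10 to 14 risen, 6 to 12 fallen, 4 to 5 up and 2 to 4 down. Between the concentrations, 12 were higher against 0 under spike-in scaling, where the share of all genes went from 34.6% to 5.98%. With an array left out 8 to 13 were higher and 7 to 10 lower. Signs turned for RAD23B between the concentrations (0.12 under normexp, 0.10 with the authors' values), for ERCC3, GTF2H1, ERCC1 and ERCC4 between the concentrations under spike-in scaling (-0.14, -0.042, -0.080 and -0.043) and for PMS1 at 80 nM with the mean of the probes (-0.21); the cause was not tested. Of the 21 genes called at 80 nM, 21 were called again under quantile normalization, 20 with the authors' values, 19 under normexp or median scaling and 7 under spike-in scaling. The replicate block ended the calls of ERCC8, GTF2H5 and NEIL1 at 80 nM (adjusted p = 0.073, 0.052 and 0.055), XAB2 and ERCC4 at 8 nM (0.081 and 0.091) and ERCC4, NTHL1 and POLB between the concentrations (0.053, 0.072 and 0.055), and no other. Same-numbered arrays of 80 nM and of the other groups did not deviate together (r between -0.12 and 0.02).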
